A study of Homo sapiens with 8 samples.

Results

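RNA pulled down with an antibody to ribosomal protein S6 (RPS6) was compared with the RNA of the cell lysate in HCT116 cells, a human colorectal carcinoma line grown in McCoy's 5A medium. The HCT116 pair consisted of 1 RNA immunoprecipitation (RIP) library and 1 input library. The input library holds total RNA of the same cell line without immunoprecipitation. The labels name no treatment of the cells, and the sources used here name no control antibody for these libraries. Genes entered the comparison when the mean of their estimated counts in both HCT116 libraries was at least 10, which kept 17600 of the 57756 listed genes. Of these, 13361 are protein coding, 539 are long noncoding RNAs (lncRNAs) and 2681 have a name that RefSeq does not match. The 3 other lines of the study, Hep3B from liver, DU145 from prostate and SW1990 from pancreas, also had 1 RIP and 1 input library each and were used only for comparison. The liver pair is titled 3B, and the study's methods name Hep3B, while its cell line field names Huh7. The HCT116 and Hep3B pairs were deposited in 1 table and the DU145 and SW1990 pairs in another, so levels set across the tables may carry a difference in normalization, while each ratio of RIP to input lies within 1 table. With 1 library a side there is no replicate error within HCT116, so no p-value was computed within the pair and the values below describe these libraries.

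The HCT116 input held 45572116 fragments and the HCT116 RIP library held 42610124, and the other 6 libraries ranged from 34630231 to 54209591. EPCAM, an epithelial adhesion protein, was at 111 FPKM (fragments per kilobase of transcript, scaled to 1000000 fragments in the library) in the HCT116 input and CDX2, an intestinal transcription factor, was at 6.25 FPKM. The other 10 of 12 colon epithelium markers were below 1 FPKM in that library, 4 of them (CDX1, CEACAM5, LGR5 and VIL1) at 0, so HCT116 cells were not identified by most of these markers. No hepatocyte or leukocyte marker reached 1 FPKM in the HCT116 input. All 8 hepatocyte markers were higher in HCT116 RIP than in HCT116 input, and their summed level was 1.79 FPKM in input and 9.09 FPKM in RIP. The sum was also higher in RIP in Hep3B (6665 and 13101 FPKM), DU145 (17.1 and 41.4 FPKM) and SW1990 (8.05 and 34.4 FPKM). Single markers went both ways in those lines. ALB, the serum albumin gene, was at 0.291 FPKM in HCT116 input, 2.54 FPKM in HCT116 RIP and 9582 FPKM in Hep3B RIP. Among 5 fibroblast markers, COL1A1, a collagen chain, was at 4.29 FPKM in input and 25.3 FPKM in RIP. The part of these markers in the results below was not tested.

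Ribosomes read mRNAs that reach the cytoplasm, and RPS6 sits in their small subunit, so an RPS6 antibody can recover RNAs that are held by small subunits or by whole ribosomes. RPS6 is phosphorylated by S6 kinases downstream of mTOR. Mitochondria translate their own mRNAs on separate ribosomes that lack RPS6, and many small noncoding RNAs work in particles that are not ribosomes. The mRNAs of ribosomal proteins start with a run of pyrimidines, the terminal oligopyrimidine (TOP) motif, through which mTOR controls their translation.

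Ratios are given as log2 of (RIP FPKM + 1) over (input FPKM + 1), which understates the difference for genes near 1 FPKM. Of the 17600 genes, 3740 were at least 2-fold higher in HCT116 RIP than in input (21.2%) and 2622 were at least 2-fold lower (14.9%). A 4-fold difference was reached by 953 genes in the direction of RIP and by 643 genes in the direction of input. The median log2 ratio was 0.10 over all of these genes and 0.17 over the protein-coding ones. The balance of both directions depended on the scale. On estimated counts scaled to 1000000 per library (CPM) the median moved by -0.39 and the calls became 2329 higher and 4771 lower, and centring on protein-coding genes gave 3088 higher and 3258 lower. The 280 genes with a mean from 10 to under 11 counts had a median ratio of -0.05, and the 285 genes just below the minimum, from 9 to under 10, also had -0.05.

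**Figure D1:**
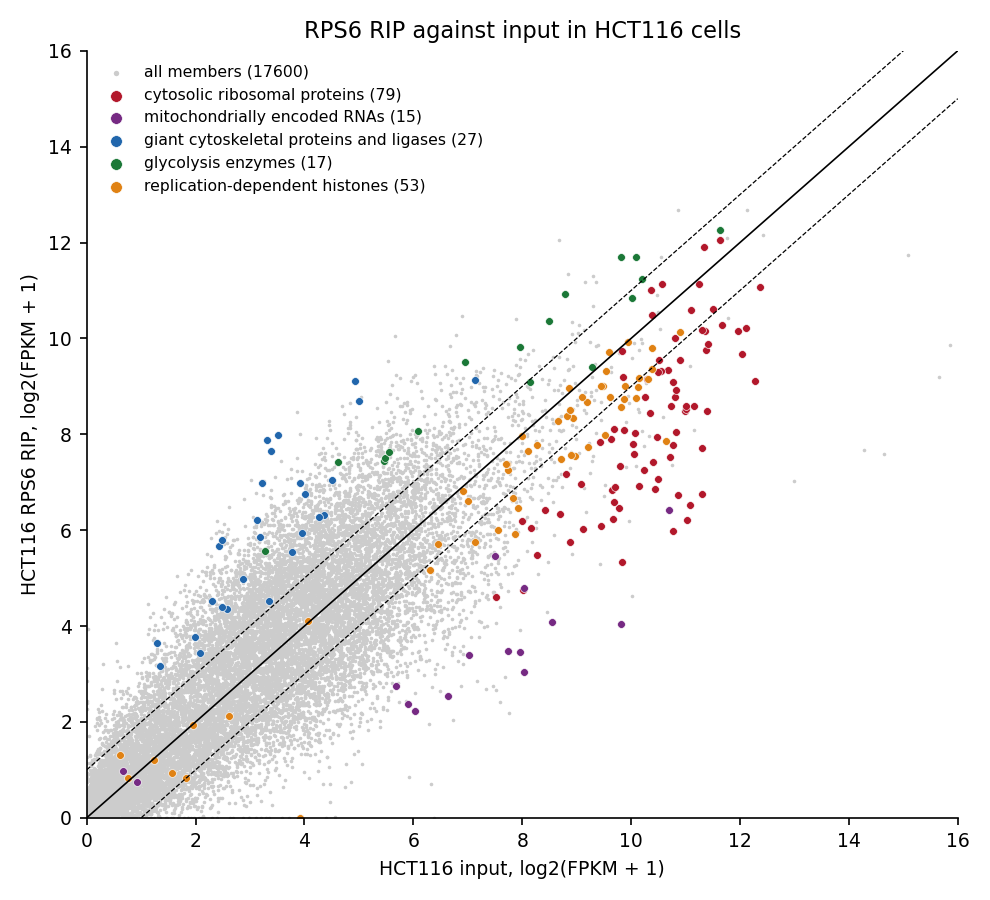
Each point is 1 gene of the HCT116 pair, with log2(FPKM + 1) in the input library on the x axis and in the RPS6 RIP library on the y axis, the solid line at equal values and the dashed lines at a 2-fold difference. Ribosomal protein mRNAs and mitochondrially encoded RNAs lie mostly below the lines, and all 27 giant proteins and ligases lie above them.

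Small noncoding RNAs of particles other than the ribosome were abundant in the input and scarce in RIP. Genes of the signal recognition particle RNA (RN7SL names), which guides secretory proteins to the endoplasmic reticulum (ER), took 2.78% of input fragments (95% Wilson interval 2.77 to 2.78) and 0.0203% of RIP fragments (0.0199 to 0.0208). The interval covers counting error only. RN7SL2 was at 80927 FPKM in input and 650.5 FPKM in RIP, a log2 ratio of -6.96. RN7SL1 was at 84434 FPKM in input and 909.2 FPKM in RIP, with a log2 ratio of -6.54. RN7SL1, RN7SL2 and the pseudogenes RN7SL4P and RN7SL5P have nearly the same sequence, so reads may be split between them, and the summed share is the safer value. The share of these genes was also lower in RIP in each other line.

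Other nuclear and nucleolar RNAs followed the same direction. 7SK RNA, which holds back transcription elongation in the nucleus, took 0.984% of input fragments (0.981 to 0.987) and 0.0114% of RIP fragments (0.0110 to 0.0117). RPPH1, the RNA of ribonuclease P, which trims tRNA precursors, took 0.909% (0.906 to 0.911) and 0.00781% (0.00754 to 0.00808). RMRP, the related RNA of ribonuclease MRP, took 0.277% (0.276 to 0.279) and 0.0182% (0.0178 to 0.0186), a 15.3-fold difference. Of 13 nuclear small RNAs in the list, 4 reached the count minimum and all 4 were at least 2-fold lower in RIP. Of 11 cytoplasmic small RNAs, 4 reached it and 3 were at least 2-fold lower. RMRP did not go the same way in all lines. Its log2 ratio was -3.35 in HCT116, -6.23 in Hep3B, -3.74 in DU145 and 0.54 in SW1990.

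Small nucleolar RNAs (snoRNAs), which guide chemical modification of ribosomal RNA, were nearly out of reach of these libraries. Of 419 distinct snoRNA names listed, 19 reached a mean of 10 counts in HCT116, and all listed snoRNA genes together took 3948 fragments of the input and 937 of RIP. Of the 19, 14 were at least 2-fold lower in RIP, against 14.9% of all genes, and 0 were at least 2-fold higher, against 21.2%. The minimum was set on the mean of both libraries, so a name could pass through its input alone, as SCARNA7 did. The part of this filter in these counts was not tested. The median log2 ratio of the 19 was -1.43. SNORA23, an H/ACA box snoRNA on which the study centres, was at 19.96 FPKM in input and 10.2 FPKM in RIP, from 23 and 8 fragments, and its log2 ratio was -0.91 in HCT116 and -3.69, 1.42 and -1.25 in Hep3B, DU145 and SW1990. SNORA73B was at 30.5 FPKM in input and 4.45 FPKM in RIP, from 51 and 5 fragments. SCARNA7, a guide RNA of Cajal bodies, was at 14.1 FPKM in input, from 85 fragments, and is listed at 0 in RIP. The host gene of SNORA23, IPO7, had a log2 ratio of 0.31 (98.6 FPKM in input and 122 FPKM in RIP), and RCC1, the host of SNORA73B, had 1.01 (76.1 and 154 FPKM). The sign for IPO7 depended on the library scaling, with a log2 ratio of -0.45 on CPM and 0.04 on fragments scaled by the trimmed mean of M values (TMM). RCC1 fell below a 2-fold difference, with 0.40 on CPM and 0.89 on TMM-scaled fragments. SNORA23, at -0.91 on FPKM, was at -0.34 on CPM and -0.23 on TMM-scaled fragments. The counting interval of its log2 ratio of fragments per library total ran from -2.80 to -0.22. SNORA73B, at -2.53 on FPKM, was at -0.92 on CPM and -0.81 on TMM-scaled fragments. For both snoRNAs, 1 was added to low values on CPM and on TMM-scaled fragments. The median of the 19 snoRNAs was -0.93 on TMM-scaled fragments.

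Of the 539 lncRNAs, 86 were at least 2-fold lower in RIP (15.96%) and 40 were at least 2-fold higher (7.42%), with a median log2 ratio of -0.21. Against all genes, the share lower was close to the 14.9% there and the share higher was below 21.2%. By fragments, all listed lncRNAs took 0.83% of input fragments (0.827 to 0.833) and 0.235% of RIP fragments (0.233 to 0.236), while protein-coding RNAs outside mitochondria took 91.3% (91.2 to 91.3) of input and 97.6% of RIP fragments. MALAT1, a nuclear speckle RNA, was at 483 FPKM in input and 44.4 FPKM in RIP and made up 125152 of the 378199 lncRNA fragments of the input, and NEAT1, the scaffold of paraspeckles, was at 44.9 and 6.80 FPKM. Of 13 well-studied lncRNAs, 9 were at least 2-fold lower in RIP and 0 were at least 2-fold higher, with a median log2 ratio of -1.18. The lncRNAs that host snoRNAs in their introns had a median of -1.54, with 11 of 16 at least 2-fold lower and 0 higher. Their lowest member, SNHG6, was at 144 FPKM in input and 6.25 FPKM in RIP, and GAS5, a host gene that itself carries a TOP start, was at 373 and 120 FPKM. Antisense and LINC names lay nearer the centre. Of 298 antisense names, 43 were at least 2-fold lower and 31 at least 2-fold higher, and of 110 LINC names, 19 were lower and 6 were higher.

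Among noncoding names with 100 counts or more on average, clone names left out, the highest ratio was that of MYCBP2-AS1 (7.13 FPKM in input, 132 FPKM in RIP, log2 ratio 4.03), which lies opposite MYCBP2 in a locus that 3 listed genes carry. MYCBP2 itself, a giant ubiquitin ligase, had a log2 ratio of 3.09, and the sources used here do not say whether the counting used strand. The next 4, PKD1P1 (3.56), PKD1P5 (3.55), NPIPP1 (3.18) and PKD1P6 (3.14), are pseudogenes that are nearly identical to PKD1 or NPIP genes or overlap such copies, so their values are uncertain.

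RNAs encoded by the mitochondrial genome were lower in RIP. They took 0.471% of input fragments (0.469 to 0.473) and 0.0183% of RIP fragments (0.0179 to 0.0187). Of 15 members, 13 were at least 2-fold lower in RIP, against 14.9% of all genes, and 0 were at least 2-fold higher, against 21.2%. The median log2 ratio was -3.79. MT-CO3, a subunit of cytochrome c oxidase, had the lowest ratio, -5.78, with 905 FPKM in input and 15.5 FPKM in RIP. MT-CO1, of the same complex, was at 1659 FPKM in input and 84.9 FPKM in RIP, and MT-CYB, of the cytochrome bc1 complex, was at 375 and 15.9 FPKM. Subunits of complex I were at similar ratios, with -4.11 for MT-ND1, -3.79 for MT-ND5 and -3.62 for MT-ND6. The mitochondrial ribosomal RNAs MT-RNR1 and MT-RNR2 were below 1 FPKM in both libraries. The median over the list was lower still in the other lines, at -5.19 in Hep3B, -4.03 in DU145 and -6.73 in SW1990. By share of fragments the order differed. These RNAs took 2.27% of input and 0.255% of RIP fragments in Hep3B, 5.001% and 0.325% in DU145, and 2.98% and 0.0745% in SW1990. Relative to input, the share thus fell less in Hep3B and DU145 than in HCT116, and more in SW1990. The input share was lowest in HCT116.

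Nuclear-encoded mRNAs of the cytosolic ribosome took the largest share of input fragments among the RNA classes that were lower in RIP. The 79 ribosomal protein mRNAs took 8.53% of input fragments (8.52 to 8.54) and 2.32% of RIP fragments (2.32 to 2.33). Of the 79, 67 were at least 2-fold lower in RIP, against 14.9% of all genes, 0 were at least 2-fold higher, and the median log2 ratio was -2.12. RPLP1, an acidic protein of the ribosomal stalk, had the lowest ratio among protein-coding genes that share no locus and average 100 counts or more, -4.82, with 2096 FPKM in input and 73.4 FPKM in RIP. RPS12 was at -4.77, RPS21 and RPS15A were at -4.55, and RPS29 was at -4.50. The mRNA of RPS6 itself was at 1298 FPKM in input and 348 FPKM in RIP, a log2 ratio of -1.90.

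Some ribosomal protein mRNAs did not follow the list. RPS15 (1318 FPKM in input, 2052 FPKM in RIP) had the highest log2 ratio, 0.64, before RPL8 (2574 and 3864 FPKM) at 0.59, RPL3 (1519 and 2245 FPKM) at 0.56 and RPL4 (3159 and 4267 FPKM) at 0.43. The transcript lengths implied by counts and FPKM were 0.964 kb for RPL4, 1.31 kb for RPL3 and 0.7 kb for RPL8, above the median of 0.564 kb over the list, and 0.478 kb for RPS15, below it. Ribosomal protein pseudogenes share sequence with these genes, so their values are uncertain. Of 130, 43 were at least 2-fold lower, against 14.9% of all genes, and 3 were at least 2-fold higher, against 21.2%. Their median was -0.52. The sign for RPL4, whose locus 7 listed genes carry, depended on the scale, since the 95% counting interval of its log2 ratio of fragments per library total ran from -0.10 to -0.07.

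The starts of ribosomal protein genes are shown here because the TOP letters set this list apart from most other genes. Each run gives 10 bases before and 20 bases from the RefSeq start on GRCh38.p14, 5′ to 3′, with capitals for a C at the start and the pyrimidines that follow it without a break, where at least 4 follow. RPLP1, RPS12 and RPS21 had the lowest ratios, RPS6 is the protein pulled down, RPLP0 and EEF1A1 are abundant mRNAs with TOP letters, EEF2 had the highest FPKM in RIP, and RPL4, EIF4G1 and PRPF8 have no such letters at the annotated start.
RPLP1 (chr15:69452808-69452837, + strand): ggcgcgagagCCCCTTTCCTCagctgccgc
RPS12 (chr6:132814559-132814588, + strand): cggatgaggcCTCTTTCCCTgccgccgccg
RPS21 (chr20:62387093-62387122, + strand): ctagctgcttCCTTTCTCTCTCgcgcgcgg
RPS6 (chr9:19380217-19380246, - strand): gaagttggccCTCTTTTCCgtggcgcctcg
RPLP0 (chr12:120201092-120201121, - strand): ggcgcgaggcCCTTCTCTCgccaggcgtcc
EEF1A1 (chr6:73521013-73521042, - strand): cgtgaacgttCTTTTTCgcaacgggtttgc
EEF2 (chr19:3985444-3985473, - strand): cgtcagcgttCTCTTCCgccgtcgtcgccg
RPL4 (chr15:66504836-66504865, - strand): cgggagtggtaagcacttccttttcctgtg
EIF4G1 (chr3:184314596-184314625, + strand): gcggggagccggaaatggttgtggactacg
PRPF8 (chr17:1684848-1684877, - strand): cgggttgcgcacttcccggcgctgggaacg

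Of the 63 ribosomal protein genes with a RefSeq start sequence, 43 (68.3%) held these letters on the sense strand, the only strand searched, against 536 of 10638 other protein-coding genes of the HCT116 pair (5.04%) and 4.07% of all 35116 start sequences in the table. Ribosomal protein genes with the letters had a median log2 ratio of -2.35 and those without had -1.43. Among those with an implied transcript length under 0.5 kb, the medians were -2.41 with the letters (22 of 29 genes) and -2.43 without. From 0.5 to 1 kb they were -1.89 with the letters and -1.35 without. Among the other protein-coding genes the medians were 0.07 with the letters and 0.17 without. EEF2, with a tract of 7 pyrimidines, and RPS21, with 12, had log2 ratios of 1.82 and -4.55. The letters are a description of the annotated start, and genes can start at other bases in HCT116 cells.

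Translation factors, which also include TOP mRNAs, spread over both directions. Of 40 factors, 7 were at least 2-fold higher and 10 were at least 2-fold lower, beside 21.2% and 14.9% of all genes. Their median log2 ratio was -0.04. EIF4G1, the scaffold of the cap-binding complex, was at 50.5 FPKM in input and 601 FPKM in RIP, a log2 ratio of 3.55, in a locus that 23 listed genes carry. EIF3B, a core subunit of initiation factor eIF3, was at 119 and 573 FPKM, and EIF3C was at 47.0 and 143 FPKM. At the other end, TPT1 was at 2270 FPKM in input and 273 FPKM in RIP, a log2 ratio of -3.05, and EEF1B2, a nucleotide exchange subunit of elongation, was at 1088 and 160 FPKM. The list thus ran from mRNAs several-fold lower in RIP to mRNAs several-fold higher.

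Components of mTOR signaling, the pathway upstream of RPS6, were on both sides as well. Of 29 genes, 10 were at least 2-fold higher and 6 were at least 2-fold lower, beside 21.2% and 14.9% of all genes. The median was 0.46. TSC2, an inhibitor of the pathway, was highest at 3.13 (11.2 FPKM in input, 105 FPKM in RIP), followed by MTOR, the kinase, at 2.96 (10.4 and 87.5 FPKM) and RPTOR, its partner that recruits substrates, at 2.77 (15.6 and 112 FPKM). EIF4EBP2, a repressor of the cap-binding protein, was lowest at -2.35 (31.7 and 5.42 FPKM), while its relative EIF4EBP1 was at -0.11 (104 and 96.7 FPKM).

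Among protein-coding genes that share no locus and average 100 counts or more, PRPF8 (chr17:1553922-1588176, hg19), the core protein of the spliceosome, was highest with 49.7 FPKM in input and 1057 FPKM in RIP, a log2 ratio of 4.38. FLNA (chrX:153576891-153603006, hg19), an actin cross-linking filamin, was at 45.3 FPKM in input and 733 FPKM in RIP. SNRNP200, a helicase of the spliceosome, was at 24.8 and 384 FPKM. The other 7 of the highest 10 were CAD, which starts pyrimidine synthesis (log2 ratio 3.87), INTS1 of the Integrator complex (3.82), PHRF1 (3.75), POLR2A, the largest subunit of RNA polymerase II (3.74), GEMIN5 of the SMN complex (3.67), GTF3C1 of transcription factor IIIC (3.65) and FASN, the fatty acid synthase (3.57). Each of these 10 had a positive ratio in the 3 other lines as well. FASN reached 1411 FPKM in RIP from 118 FPKM in input.

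In that set the lowest 10 ratios were, beside RPLP1 and RPS21, those of 5 mitochondrial mRNAs (MT-CYB, MT-CO1, MT-ND1, MT-ND5 and MT-ND6), RPL22L1 (-4.14), a ribosomal protein paralog, NDUFB1 (-3.93), a small subunit of complex I, and HRSP12 (-3.65). NDUFB1 rested on 263 fragments in input and 10 in RIP, and HRSP12 on 941 and 18.

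**Figure D2:**
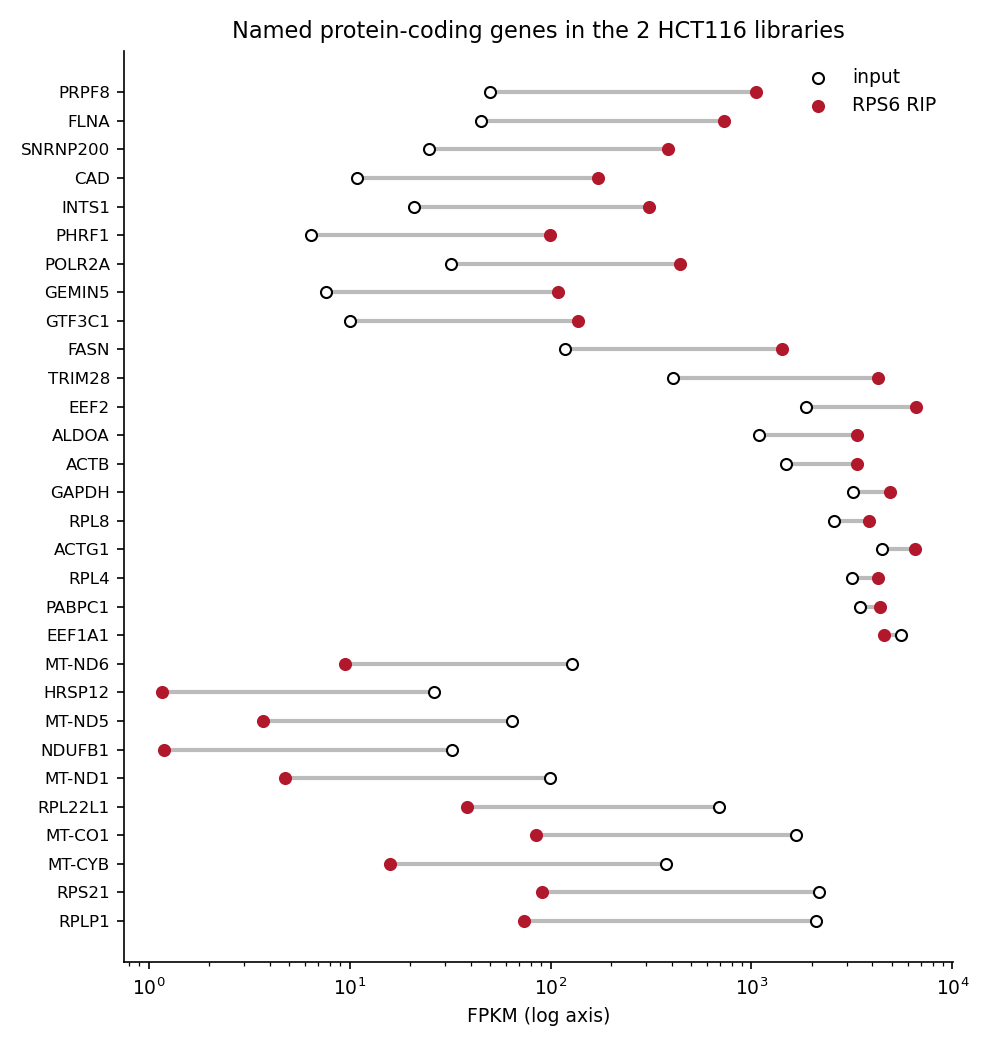
FPKM on a log axis in the HCT116 input (open circles) and RPS6 RIP (filled circles) libraries for the 10 highest and 10 lowest single-locus protein-coding genes and the 10 protein-coding genes with the highest FPKM in RIP, ordered by log2 ratio. PRPF8 runs from 49.7 to 1057 FPKM and RPLP1 from 2096 to 73.4 FPKM, while EEF1A1 lies at 5517 FPKM in input and 4568 FPKM in RIP.

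A list of 27 giant cytoskeletal proteins and ligases was at least 2-fold higher in RIP for each of its 27 members, against 21.2% of all genes. Its median log2 ratio was 2.37. Of the 27, 26 share their locus with another listed gene, and the 1 with a locus of its own was at 2.01. UBR4, a ubiquitin ligase, was highest at 4.59 (8.89 FPKM in input, 236 FPKM in RIP), before DYNC1H1, the heavy chain of dynein, at 4.46 (10.4 and 251 FPKM), HERC2, another ligase, at 4.26 (9.50 and 200 FPKM) and PRKDC, the catalytic subunit of DNA-dependent protein kinase, at 4.18 (29.6 and 554 FPKM). ATM, the kinase of the DNA damage response, was lowest at 1.16 (9.20 and 21.9 FPKM). TLN1, the integrin adaptor talin, had the highest ratio of all 17600 genes, 4.59, with 13.6 FPKM in input and 350 FPKM in RIP; its locus is carried by 6 listed genes and it was named after its value was seen. Chromatin regulators, many of them long as well, had a median of 1.73, with 23 of 32 at least 2-fold higher and 0 lower. They ran from EZH2 (-0.29) to TRRAP, a scaffold of acetyltransferase complexes (3.78, with 8.52 FPKM in input and 130 FPKM in RIP). Of the 32, 28 share their locus, and the median over the other 4 was 1.30.

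Length was followed across all protein-coding genes with an implied transcript length. It was computed from the inputs of the 3 other lines as estimated counts over FPKM, scaled to the library total. No HCT116 value thus entered it. The implied length is not a measured one and can fall below the span of a short RNA. RN7SL2 (chr14:50329270-50329567, hg19), for example, had 0.120 kb. The median log2 ratio was -1.38 under 0.5 kb (267 genes), -0.52 from 0.5 to 1 kb, 0.10 from 1 to 2 kb, 0.29 from 2 to 4 kb, 0.51 from 4 to 8 kb and 0.90 at 8 kb and over (346 genes). In the shortest class 4 of 267 genes were at least 2-fold higher and 160 were at least 2-fold lower, and in the longest class 165 of 346 were higher and 9 were lower. Across 13071 genes, which are not independent replicates, Spearman's rho between length and ratio was 0.30 in HCT116. It was 0.22 in Hep3B, 0.28 in DU145 and 0.33 in SW1990. The input FPKM of those 3 lines entered both the length and their ratios, and the part of this in their rho was not tested. FPKM divides by length, and the same order was found on TMM-scaled fragments, with medians of -1.27 in the shortest class and 1.07 in the longest. In 5 classes of equal size by input level, rho ranged from 0.15 in the class with the lowest input to 0.36 in the class with the highest. Genes of different length also differed in other respects, and the part of each was not tested.

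**Figure D3:**
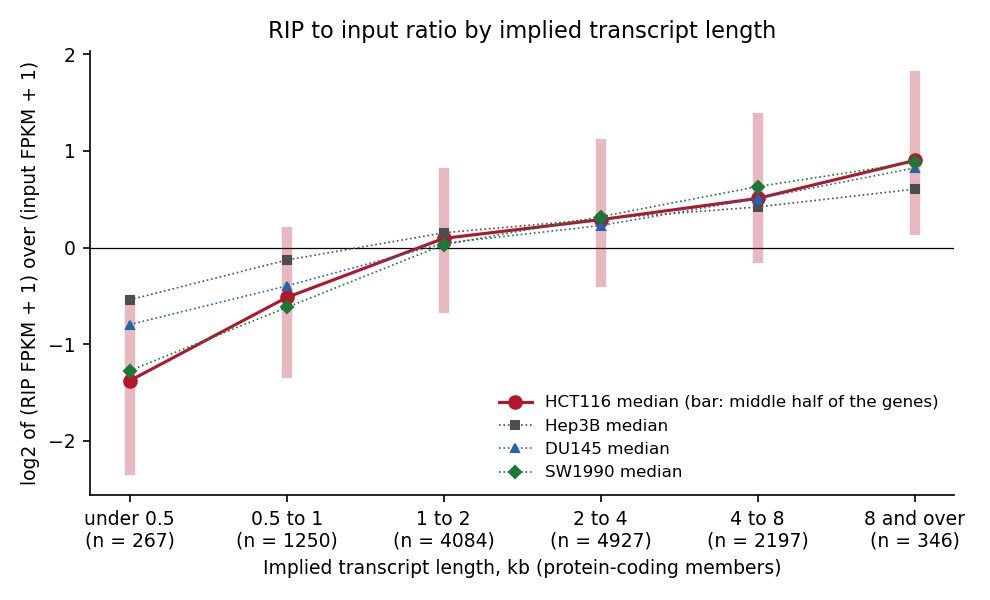
Median log2 of (RIP FPKM + 1) over (input FPKM + 1) by class of implied transcript length in kb for protein-coding genes, with a bar from the lower to the upper quartile for HCT116 and the medians of the other lines as smaller symbols. The HCT116 median goes from -1.38 under 0.5 kb to 0.90 at 8 kb and over.

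Metabolic enzymes were among the lists with high ratios. Their counts are read against 21.2% higher and 14.9% lower among all genes. All 17 glycolysis enzymes were above 0 and 13 of 17 were at least 2-fold higher, with a median log2 ratio of 1.88. HK1, a hexokinase, was highest at 2.80 (23.6 FPKM in input, 170 FPKM in RIP), PKM, the pyruvate kinase, was at 2.15 (438 and 1946 FPKM), and LDHB, a lactate dehydrogenase, was lowest at 0.11 (621 and 672 FPKM). The ratio of LDHB turned negative, to -0.35, on TMM-scaled fragments. Among aminoacyl-tRNA synthetases, which charge tRNAs, 15 of 20 were at least 2-fold higher and 0 lower, with a median of 1.56, from RARS (-0.31) to VARS (3.43, with 47.6 FPKM in input and 524 FPKM in RIP). Over the 6 synthetases with a locus of their own the median was 0.79.

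Lists of mitochondrial and ER complexes were among those with medians below 0. Over all genes, 21.2% were at least 2-fold higher and 14.9% were at least 2-fold lower. Of 75 nuclear-encoded respiratory chain genes, 47 were at least 2-fold lower and 9 were at least 2-fold higher, with a median of -1.21. Its highest member was SDHA, the large flavoprotein subunit of complex II, at 2.34 (41.2 FPKM in input, 213 FPKM in RIP). Of 76 mitochondrial ribosomal proteins, 29 were lower and 2 were higher, with a median of -0.85, from MRPL33 (-3.59) to MRPL38 (1.35). Of 28 genes of the ER translocon and signal recognition, 15 were lower and 3 were higher. SEC61G, the smallest subunit of the translocon, was at 116 FPKM in input and 5.74 FPKM in RIP (-4.12), while RPN2, a ribophorin of the oligosaccharyltransferase, was at 46.6 and 244 FPKM (2.36). Of 12 S100 proteins, small calcium binders, 5 were lower and 0 were higher, with S100A6 at 1714 and 163 FPKM.

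The 10 protein-coding genes with the highest FPKM in HCT116 RIP were EEF2 (6555 FPKM), ACTG1 (6515 FPKM), GAPDH (4917 FPKM), EEF1A1 (4568 FPKM), PABPC1 (4350 FPKM), TRIM28 (4276 FPKM), RPL4 (4267 FPKM), RPL8 (3864 FPKM), ALDOA (3345 FPKM) and ACTB (3335 FPKM). They encode translation factors, actins, glycolytic enzymes, a poly(A)-binding protein, ribosomal proteins and a corepressor. TRIM28, the corepressor, stood out from the other 9 with 408 FPKM in input and a log2 ratio of 3.39. EEF2, the elongation factor that moves the ribosome along the mRNA, was at 1859 FPKM in input and had a log2 ratio of 1.82, which was 0.70 on CPM and 1.19 on TMM-scaled fragments. EEF1A1, its partner that delivers tRNAs, was at -0.27, the one value of the 10 below 0 on FPKM. On CPM, PABPC1 (-0.51) and RPL4 (-0.09) were below 0 as well, and on TMM-scaled fragments PABPC1 was at -0.02.

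Lists tied to colorectal cancer and to proliferation are read against 21.2% higher and 14.9% lower among all genes. Of 16 Wnt pathway genes and targets, 8 were at least 2-fold higher and 0 lower, with a median of 0.99. CTNNB1, which encodes β-catenin, was at 57.8 FPKM in input and 393 FPKM in RIP (2.74), AXIN2, a feedback inhibitor, was at 3.85 and 10.4 FPKM (1.23), and TCF7L2, a transcription factor of the pathway, was lowest at -0.72. Of 38 DNA replication genes, 18 were higher and 2 were lower. POLD1, a replicative polymerase, was at 21.9 FPKM in input and 224 FPKM in RIP (3.30), and RPA3, the smallest subunit of replication protein A, was at 79.9 and 5.65 FPKM (-3.61). Of 16 keratins, 5 were higher and 2 were lower. Among them KRT8 was at 457 and 2588 FPKM (2.50) and KRT18, its partner in simple epithelia, which shares the locus, was at 519 and 1113 FPKM (1.10).

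Targets of p53 were evenly spread. Of 18 targets, 5 were at least 2-fold higher and 4 were at least 2-fold lower, with a median of -0.01. MDM2, the ligase that removes p53, was at 240 FPKM in input and 40.5 FPKM in RIP (-2.54), CDKN1A, the cell cycle inhibitor p21, was at 154 and 141 FPKM (-0.13), and FDXR was highest at 1.91 (38.4 and 147 FPKM). The remaining lists also held members in both directions, with 21.2% higher and 14.9% lower over all genes. These were ribosome biogenesis factors (16 higher and 9 lower of 40, from NOP10 at -1.79 to RRP12 at 3.48), heat shock proteins (9 and 1 of 24, HSPE1 at -3.16 to HSPA1B at 3.02), motor proteins (27 and 8 of 66, DYNLT3 at -2.90 to DYNC1H1), collagens, laminins and integrins (23 and 1 of 49, ITGB1 at -1.21 to COL18A1 at 3.02) and cholesterol synthesis enzymes (8 and 4 of 23, MSMO1 at -1.61 to LSS at 2.45). The others were proteasome subunits (5 and 5 of 36), SR and hnRNP splicing factors (7 and 4 of 34), zinc finger genes (65 and 57 of 375), immediate early genes (4 and 3 of 18) and integrated stress response genes (6 and 1 of 18).

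**Figure D4:**
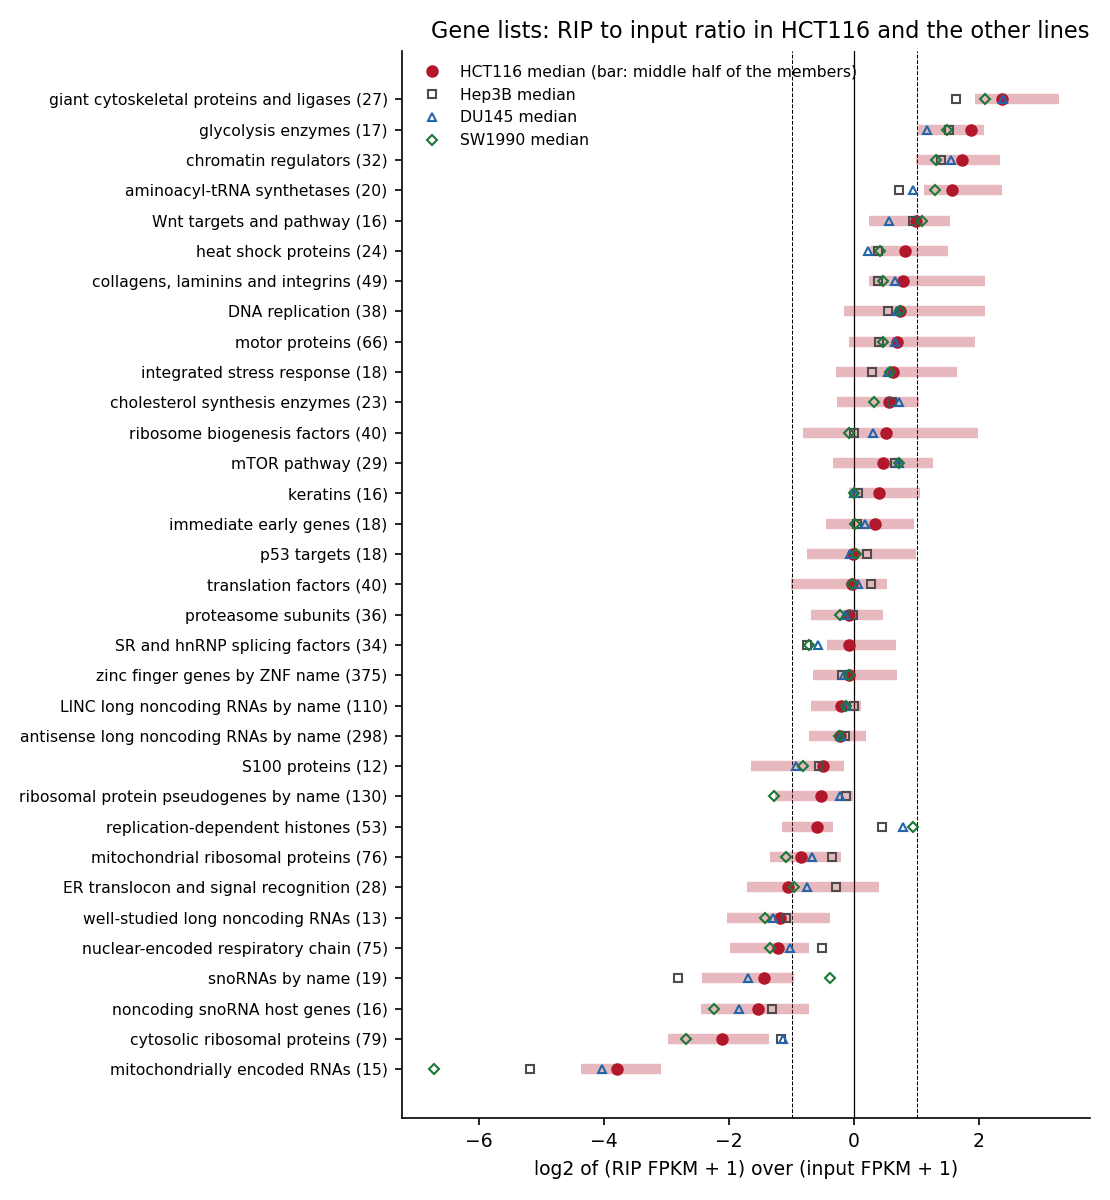
Median log2 of (RIP FPKM + 1) over (input FPKM + 1) of each gene list in HCT116, with a bar from the lower to the upper quartile, and in the 3 other lines as open symbols, with the number of HCT116 genes in brackets and dashed lines at a 2-fold difference. The histone list is the one with the HCT116 median (-0.59) and the medians of the other lines (0.44 to 0.95) on opposite sides of 0.

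Many of the differences were shared by the other lines. Of the 3740 genes at least 2-fold higher in HCT116, 1785 (47.7%) were also at least 2-fold higher in all 3 other lines and 553 (14.8%) in none of them. Of the 2622 lower genes, 878 (33.5%) were lower in all 3 others and 447 (17.0%) in none. Pearson's r of the HCT116 ratio across the 17600 genes was 0.73 with Hep3B, 0.83 with DU145 and 0.82 with SW1990, which describes these pairs and shares the same gene lengths. HCT116 had the highest ratio of the 4 lines for 25.5% of genes and the lowest for 25.5%.

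Whether the HCT116 ratio of a gene differed from that of the other lines was tested with edgeR's quasi-likelihood test, with a term for HCT116 in a fit over all 8 libraries and the lone HCT116 pair assumed to vary like the others. Of 19921 genes tested, 17108 of them among the 17600 of the HCT116 pair, 0 passed an adjusted p of 0.05 in the direction of a higher ratio (0%) and 0 in the direction of a lower ratio (0%). At an unadjusted p of 0.05, 432 were higher and 338 were lower in HCT116, together 3.87% of the genes tested. DESeq2 called 56 higher and 38 lower in the same comparison. With 1 line against 3 and 2 residual degrees of freedom, the absence of calls does not show that the lines were alike. An exact permutation of 1 line against 3 cannot go below p = 0.25.

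Replication-dependent histones, whose mRNAs are made in S phase and end in a stem-loop in place of a poly(A) tail, had lower ratios in HCT116 than in the other lines. Of the 53 histone genes, 19 were at least 2-fold lower in HCT116 RIP, against 14.9% of all genes, and 0 were at least 2-fold higher, against 21.2%. Ratios were above 0 for 5 of the 53. The median log2 ratio was -0.59 in HCT116, 0.44 in Hep3B, 0.78 in DU145 and 0.95 in SW1990. In HCT116, 47 of 53 were below the range of the other lines, where HCT116 was the lowest line for 25.5% of all genes. Their summed level in input was 27331 FPKM in HCT116 and 13764, 9442 and 9032 FPKM in Hep3B, DU145 and SW1990. The summed level in RIP was 15745 FPKM in HCT116 and 18812, 20616 and 20017 FPKM in the others. HCT116 had the highest sum of the 4 lines in input and the lowest in RIP, with DU145 and SW1990 read from the other table.

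HIST1H4C, an H4 gene, was at 1590 FPKM in HCT116 input and 233 FPKM in HCT116 RIP, a log2 ratio of -2.77, with -1.06, 0.46 and -0.43 in Hep3B, DU145 and SW1990. HIST1H2BO, an H2B gene, was at 1262 FPKM in HCT116 input and 565 FPKM in HCT116 RIP, a log2 ratio of -1.16, with 0.72, 0.78 and 0.98 in the others. HIST1H3A, an H3 gene, was at 276 and 201 FPKM in HCT116, a log2 ratio of -0.46, with 1.32, 1.52 and 2.12 in the others. The linker histone gene HIST1H1E was at 465 and 496 FPKM in HCT116 (0.09), with 0.81, 1.46 and -0.16 in the others. These 4 were named after their values were seen. HIST1H2AD had the lowest ratio of the list, with 14.1 FPKM in input and 2.43e-05 FPKM in RIP, from 144 and 0 fragments, and HIST1H2AL the highest, 0.70, from 10 and 18 fragments.

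Of 52 histone genes tested for the HCT116 term, 50 had a negative coefficient and 42 had an unadjusted p under 0.05, while 0 passed after adjustment over all 19921 genes (edgeR, lowest unadjusted p 6.0e-04). DESeq2 called 21 of the 52 and edgeR without a count minimum called 16. Over all 19921 genes tested, 3.87% had an unadjusted p under 0.05 (edgeR), and DESeq2 called 56 higher and 38 lower. Without a count minimum, edgeR called 34 higher and 37 lower of 38022 genes. Under limma the count with an unadjusted p under 0.05 was 28 or 31 of 52, depending on the pseudocount. Some histone genes are near-identical copies (HIST2H4A and HIST2H4B, HIST2H3A and HIST2H3C). All 52 coefficients also rest on the same 1 RIP and 1 input library of HCT116. The genes are thus not independent of one another, and their number does not replicate the HCT116 pair. The list was set by name and leaves out HIST2H2AA3 and HIST2H2AA4, whose log2 ratios in HCT116 were -0.39 and -0.38. Histone mRNAs are short, with a median implied length of 0.3 kb, and HCT116 also had the lowest median of the 4 lines in the shortest length class, -1.38 beside -0.54, -0.80 and -1.27. The part of length or of cell cycle in the histone ratios was not tested.

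**Figure D5:**
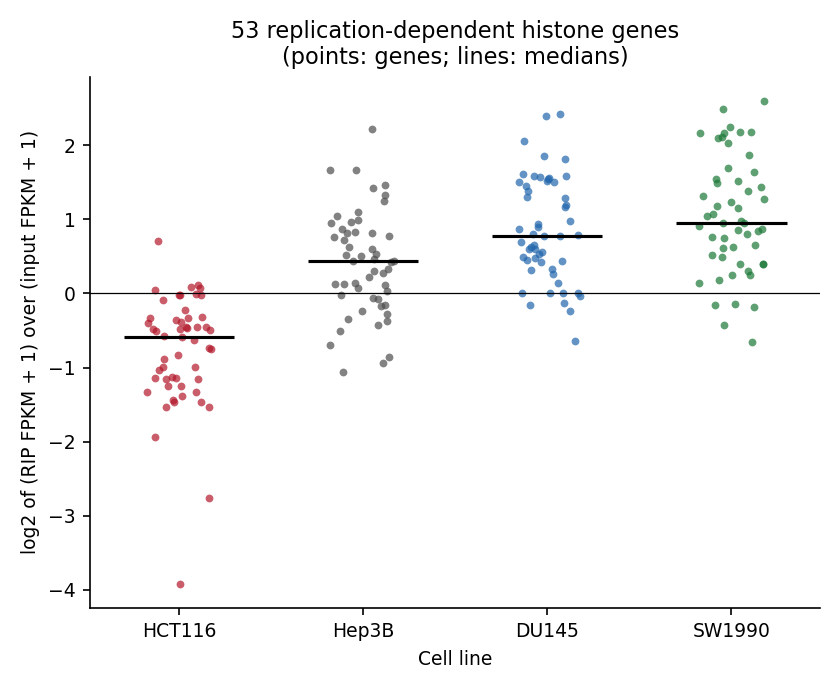
Log2 of (RIP FPKM + 1) over (input FPKM + 1) of the 53 replication-dependent histone genes in each cell line, with 1 point a gene and a black line at the median. Most HCT116 points lie below 0 and most points of the other lines above it, with medians of -0.59, 0.44, 0.78 and 0.95.

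The 4 genes with the lowest p for the HCT116 term were named after their values were seen. None passed the main test, and DESeq2 called each of them. A ratio near 0 in another line can come from levels far below 1 FPKM in both libraries, since 1 is added to each. The levels of these 4 genes in the other lines are not given here. C14orf169, whose locus 7 listed genes carry, came nearest to the threshold (edgeR adjusted p = 0.163), with 0 fragments in HCT116 input and 434 in HCT116 RIP and a log2 ratio of 2.86, beside 1.75, 1.40 and 1.20 in Hep3B, DU145 and SW1990. PCDH7, a protocadherin, was at 24.2 FPKM in HCT116 input and 4.64 FPKM in RIP, a log2 ratio of -2.16, with 1.33, 0.00 and 1.20 in the others (edgeR adjusted p = 0.457). TAF15, an RNA-binding protein of the FET family, had 0.67 in HCT116 and -1.72, -1.49 and -1.63 in the others (edgeR adjusted p = 0.875). UNC13A, a protein of synaptic vesicle release, was at 7.08 FPKM in HCT116 input and 33.2 FPKM in RIP, a log2 ratio of 2.08, with -0.04, -0.51 and 0.00 in the others (edgeR adjusted p = 0.955).

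SR and hnRNP splicing factors were above the range of the other lines in 25 of 34 members, where HCT116 was the highest line for 25.5% of all genes, with a median of -0.08 in HCT116 and -0.76, -0.57 and -0.72 in the others. Of these 34, 11 had an unadjusted p under 0.05, against 3.87% of all genes tested, and 0 passed after adjustment (edgeR). Other lists had similar counts, with 17 of 24 heat shock proteins and 14 of 20 aminoacyl-tRNA synthetases above the range of the other lines. The genes of each list rest on the same HCT116 pair and are not replicates of it.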

How the data were processed

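Gene levels came from 2 tables with 8 libraries in all. For every gene the authors deposited FPKM, already divided by transcript length and library size, and an estimated count, scaled by 1 factor per library and not whole. Per the labels, reads were processed with CASAVA 1.8 and TopHat2 2.0.9 against human genome version 19 from stranded total RNA libraries. The counting tool is not given in the sources used here. The tables of fold changes, p-values and q-values that the authors deposited per line were not used. The design had assumed raw counts, so the estimated counts were rounded before the fit. A value is called a whole fragment within 0.01 of the step common to most counts of a library (0.732 for HCT116 input and 1.09 for HCT116 RIP), which held for 93.3% and 93.1% of values, and these fragments gave depth and intervals. A total of 12066 of the 17600 genes share their listed locus with another gene.

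The HCT116 term was fitted with edgeR 4.0.16 in R 4.3.3 (TMM, cell line as a block, mean of at least 10 counts over 8 libraries, 2 residual degrees of freedom, Benjamini-Hochberg adjustment), with DESeq2 1.42.0 and limma 3.58.1 as alternatives. Python 3.11.15, pandas 2.3.3 and SciPy 1.17.1 gave the rest. RefSeq (GRCh38.p14) gave names, matching 13727 genes by symbol and 1192 by synonym, and start sequences. Named genes are the 10 highest and 10 lowest ratios among protein-coding genes that share no locus and average 100 counts or more, the 5 highest and 5 lowest noncoding names with the same average and no clone name, genes past the HCT116 test (0), the 10 highest by RIP FPKM, the ends of each list, and 4 genes the study follows and RPS6. The members, tests and 35 gene lists were chosen with earlier results of these data known. Protein lengths and hydrophobic stretches, which the design had planned, were not analysed here, and implied transcript length took their place after the data were seen.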

Additional observations from a re-analysis of the deposited data

Results flagged for a closer look

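The median log2 ratio of RIP to input over replication-dependent histones was -0.59 in HCT116, while it was above 0 in each of the other lines (0.44 in Hep3B, 0.78 in DU145 and 0.95 in SW1990). The medians lie on opposite sides of 0, and the difference between the medians was not tested.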

How the results depend on the processing

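The counts of 3740 higher and 2622 lower genes became 5655 and 4335 at a fold of 1.5, 2329 and 4771 on CPM, and 1147 and 874 among genes whose locus no other gene carries, a setting chosen after seeing the data that tests fewer genes by construction. The 5 other settings (a pseudocount of 0.1, a minimum of 50 counts, all genes above 0, centring and TMM-scaled fragments) left both counts within 1.5 times. The HCT116 term called 0 higher and 0 lower in the main fit, with a minimum of 50 counts, with the size factors of DESeq2 and with limma. It called 56 higher and 38 lower with DESeq2, which gave no adjusted p for 10428 genes, 34 and 37 without a count minimum, and 1 higher on recovered fragments. Leaving out 1 other line gave 2 to 22 higher and 0 to 9 lower, with 22 and 9 without DU145. The cause was not tested. Among list medians, for which CPM was not run, and the named genes that were recomputed, which leave out most ends of lists, no value at least 2-fold from 0 changed sign under another scale or pseudocount. The fit already pairs each RIP library with the input of its line. Low counts limit single snoRNAs, with 8 fragments of SNORA23 in HCT116 RIP.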
